A study of Mus musculus with 18 samples.

Results

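The comparison described here set livers of mice under calorie restriction on a high-fat diet (HF+CR) directly against livers of exercised mice on the same diet (HF+Ex). It used the 3 HF+CR and the 3 HF+Ex libraries, 6 of the 18 in the series, and the 351 of 758 listed miRNAs that reached 5 RPM (reads scaled to a common library total) in at least 3 of the 18 libraries. All mice were wild type C57BL/6J, an inbred laboratory strain; they entered their regimens at 5 weeks of age and their livers were taken at 62 weeks. The labels name the groups HF+CR, HF+Ex, LF+CR, LF+Ex, HF and LF. HF and LF are read as high-fat and low-fat diet, CR stands for calorie restriction and Ex for exercise in this reading; how strict the restriction was or how the mice exercised is not given in the sources used here. Both compared groups share the HF diet and differ in the intervention; the HF group had that diet with no intervention. Whether the 3 libraries of each group stem from different mice is not stated in the labels; the p-values therefore measure the spread among these samples only, and that spread may be technical. Whole liver was sequenced, and in such bulk samples fewer cells of a type and less RNA per cell cannot be told apart.

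A miRNA is a short RNA that guides a silencing complex to messenger RNAs, mostly by pairing of its seed, bases 2 to 8 from its 5′ end, so that miRNAs with the same seed share many targets. Many miRNAs are cut from 1 primary transcript with their neighbours, or lie within an intron of a host gene. In liver, miR-122 dominates the hepatocyte profile, and others, such as miR-33 and miR-148a, are known to act on genes of cholesterol transport.

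The sequences of the 8 miRNAs that differed are shown because their seeds and loci order the results that follow. They are RefSeq mature sequences on GRCm38.p6, available for 288 of the 351 miRNAs tested, in lower case with the seed in capitals.
miR-20a-5p: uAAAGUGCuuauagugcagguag
miR-17-5p: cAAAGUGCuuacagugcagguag
miR-17-3p: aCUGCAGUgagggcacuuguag
miR-148a-3p: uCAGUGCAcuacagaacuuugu
miR-33-5p: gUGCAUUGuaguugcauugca
miR-378b: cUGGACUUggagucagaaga
miR-1981-5p: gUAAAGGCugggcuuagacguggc
miR-676-3p: cCGUCCUGagguuguugagcu

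Among these, miR-20a-5p and miR-17-5p carry the same seed and differ at 2 of 23 bases, and the other 6 seeds each occur once. miR-17-5p (chr14:115043684-115043706), miR-17-3p (chr14:115043721-115043742) and miR-20a-5p (chr14:115044183-115044205) lie on the plus strand within Mir17hg, the noncoding host transcript of the miR-17-92 cluster. miR-148a-3p (chr6:51269829-51269850, minus strand) has no annotated host gene. miR-33-5p (chr15:82198127-82198147, plus strand) lies in an intron of Srebf2, which encodes a main activator of sterol synthesis. miR-378b (chr11:88352839-88352858, plus strand) lies opposite an intron of Msi2. miR-1981-5p (chr1:184822465-184822488, minus strand) is intronic in Marc2, and miR-676-3p (chrX:100381151-100381171, plus strand) is intronic in Eda. The files were made on mm10, the browser name of this assembly, per the submitters' processing notes.

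The libraries were liver by their markers, yet each HF+CR library stood apart from the other 5 compared libraries in something. miR-122-5p, the defining hepatocyte miRNA, took 26.4% of the RPM in HF+CR, against 25.6% in HF+Ex. Reads on listed miRNAs came to 3.46, 5.501 and 2.90 megareads (M) in HF+CR and to 2.38, 7.25 and 8.69 M in HF+Ex. Summed pancreatic markers were 138 RPM in HF+CR 1, against 3.66 to 6.95 RPM in the other 5 libraries. Neuronal markers summed to 366 RPM in HF+CR 2 and to 114 to 148 RPM in the others. HF+CR 3 held the most epithelial RPM, 7989 against 980 to 1428, and the most leukocyte RPM, 9761 against 3633 to 7916. Its profile correlated at 0.97 and 0.95 with HF+CR 1 and HF+CR 2, and at 0.98, 0.98 and 0.97 with HF+Ex 1, HF+Ex 2 and HF+Ex 3 (Pearson's r across miRNAs of log2 values, which are not independent). Fragment-like entries, annotated miRNAs that may be pieces of other RNAs, summed to between 186 and 448 RPM in HF+CR. In HF+Ex they summed to 541 RPM in HF+Ex 1, the library with the least depth, and to 54.1 and 65.5 RPM in the other HF+Ex libraries. High marker sums were not limited to HF+CR in the series. Pancreatic markers summed to 348 RPM in LF+CR 1, epithelial markers to 5663 RPM in LF 1 and neuronal markers to 217 RPM in LF 2.

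**Figure D1:**
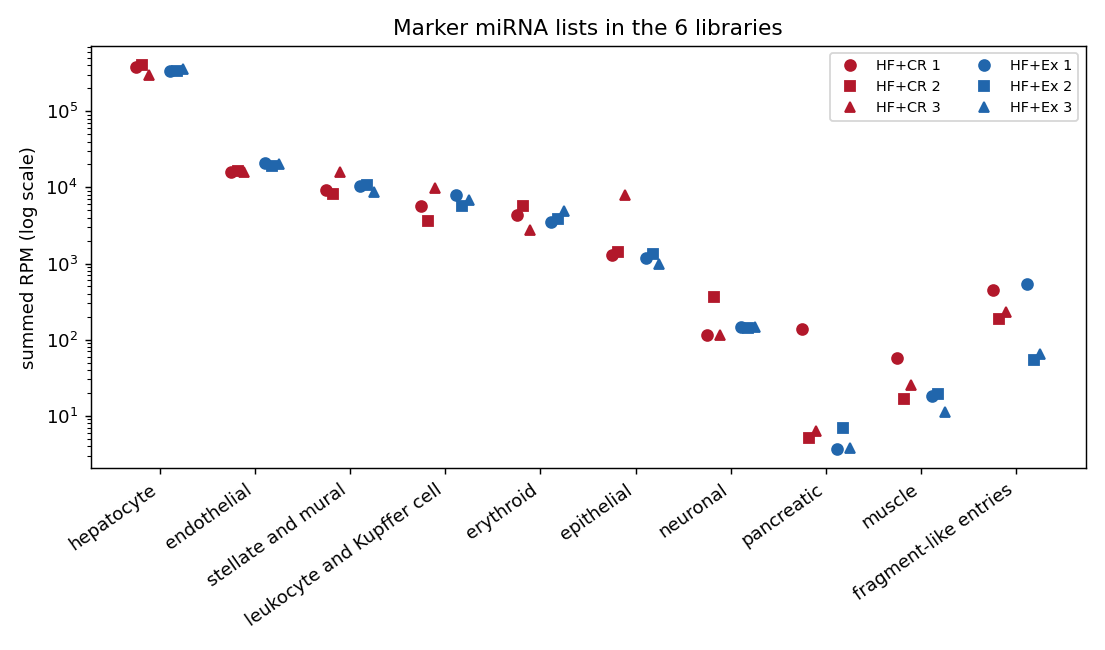
Summed RPM (log scale) of the marker miRNAs of each cell type, and of fragment-like entries, in the 3 HF+CR (red) and 3 HF+Ex (blue) libraries; marker shape gives the replicate number. HF+CR 1 stands out at 138 RPM of pancreatic markers, HF+CR 2 at 366 RPM of neuronal markers and HF+CR 3 at 7989 RPM of epithelial markers.

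Direct comparison of HF+CR with HF+Ex gave 5 miRNAs that were higher and 3 that were lower in HF+CR, out of 351 (2.28% called; 1.42% higher and 0.855% lower). Higher were miR-20a-5p, miR-17-5p and miR-17-3p of the miR-17-92 cluster, the abundant liver miRNA miR-148a-3p, and the sterol-linked miR-33-5p. Lower were miR-378b, miR-1981-5p and miR-676-3p. Calls were made by limma on log2(RPM + 1), fitted over all 18 libraries, where the adjusted p was under 0.05; the log2 differences below are HF+CR minus HF+Ex on that scale, which understates the change of low miRNAs. Without adjustment, 82 miRNAs had a p under 0.05 (23.4%), and the groups did not overlap for 67 (19.1%). With only the 6 compared libraries in the fit, limma called 0 miRNAs (50 at an unadjusted p under 0.05, smallest adjusted p 0.0901), so the calls rest on the spread shared with the other 4 groups. Without HF+CR 3 the same test called 63 miRNAs (17.9%), the 8 among them.

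**Figure D2:**
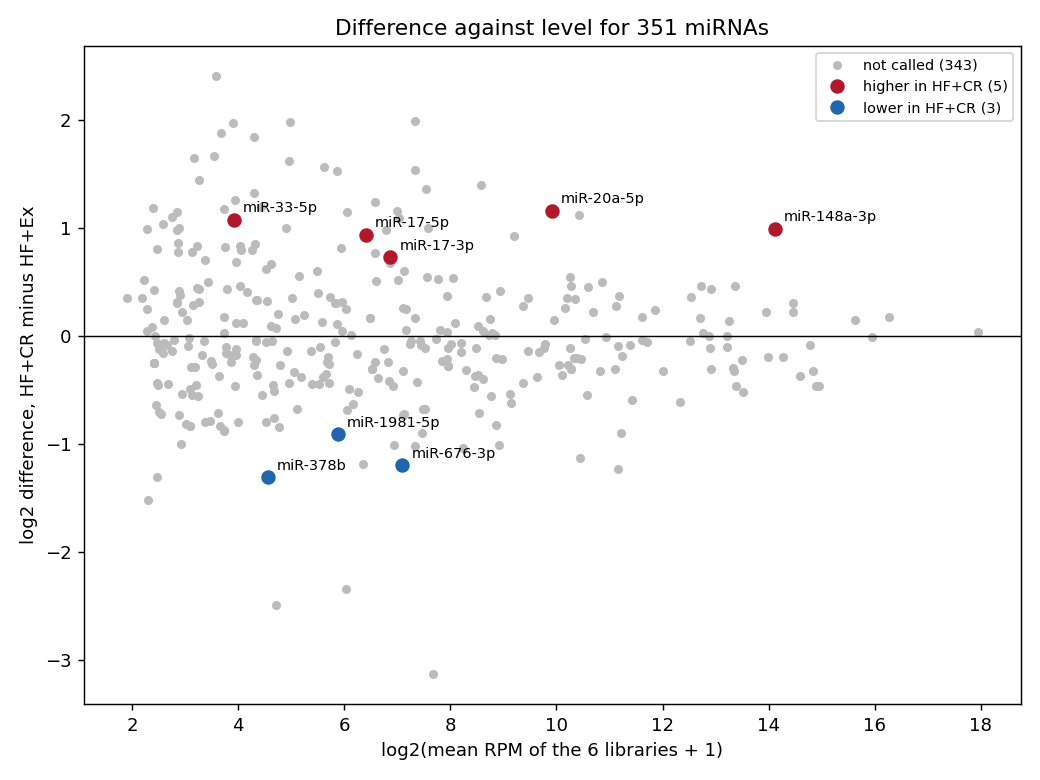
Each point is 1 of 351 miRNAs, by its mean level in the 6 libraries (x axis, log2(mean RPM + 1)) and its log2 difference, HF+CR minus HF+Ex (y axis). The 5 higher (red) and 3 lower (blue) miRNAs lie between 0.73 and 1.16 and between -0.91 and -1.31, and range in level up to miR-148a-3p, the 13th most abundant.

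miR-20a-5p, a member of the growth-promoting miR-17-92 cluster, had 1375, 1439 and 1162 RPM in HF+CR, with 748, 534 and 515 RPM in HF+Ex and 1006, 1231 and 975 RPM in HF. Every HF+CR library lay above every HF+Ex library, and HF lay above HF+Ex too. It averaged 1326 ± 145 RPM in HF+CR, against 599 ± 129 RPM in HF+Ex (SD, n = 3 each), a log2 difference of 1.16 (SE 0.19, limma adjusted p = 0.00620). miR-17-5p, which shares its seed and with it known targets among cell cycle inhibitors, had 109, 110 and 110 RPM in HF+CR, with 73.2, 52.0 and 47.9 RPM in HF+Ex and 106, 117 and 99.0 RPM in HF. HF+CR and HF were at a like level and all 3 HF+Ex libraries were below both. Its log2 difference was 0.94 (SE 0.17, adjusted p = 0.00669). miR-17-3p, from the opposite arm of the same hairpin, had 137, 142 and 154 RPM in HF+CR, against 109, 76.5 and 77.1 RPM in HF+Ex. The groups did not overlap, and the highest HF+Ex value was that of the shallow HF+Ex 1. Its difference was 0.73 (SE 0.18, adjusted p = 0.0429). The miR-17-3p call was lost without HF+CR 1 (adjusted p = 0.0855), HF+CR 2 (0.105), HF+Ex 2 (0.124) or HF+Ex 3 (0.204), while those of miR-20a-5p and miR-17-5p were kept without any 1 of the 6.

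miR-148a-3p, which in mice represses the LDL receptor and the cholesterol exporter Abca1, was the most abundant of the 8. It had 26814, 20543 and 23277 RPM in HF+CR, with 13651, 11113 and 10722 RPM in HF+Ex and 28463, 20913 and 22733 RPM in HF. The HF+CR and HF ranges overlapped, and HF+Ex lay below both. Of the RPM, it took 2.43% in HF+CR and 1.22% in HF+Ex. The log2 difference was 0.99 (SE 0.22, adjusted p = 0.0182). The call was lost without HF+CR 1 (adjusted p = 0.0855), HF+Ex 2 (0.0767) or HF+Ex 3 (0.09995).

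miR-33-5p, known to repress Abca1 and genes of fatty acid oxidation, was at low levels. It had 19.1, 23.8 and 15.7 RPM in HF+CR, with 11.8, 6.68 and 8.03 RPM in HF+Ex and 13.2, 21.2 and 24.2 RPM in HF. Each HF+CR library was above each HF+Ex library, and the HF range spanned that of HF+CR. The difference was 1.08 (SE 0.26, adjusted p = 0.0429); it missed the threshold without HF+CR 1 (adjusted p = 0.0855), HF+CR 2 (0.106), HF+Ex 2 (0.124) or HF+Ex 3 (0.160). Its other arm, miR-33-3p, had 2.52, 4.94 and 5.01 RPM in HF+CR, against 3.66, 3.21 and 2.12 RPM in HF+Ex, with overlap (0.35, adjusted p = 0.503).

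miR-378b had 9.25, 14.6 and 14.4 RPM in HF+CR, with 32.9, 31.1 and 33.5 RPM in HF+Ex and 24.3, 26.2 and 24.05 RPM in HF. HF+CR was lowest, HF+Ex highest and HF between them, with no overlap among the 3 groups. The difference was -1.31 (SE 0.24, adjusted p = 0.00669), the most negative of the called miRNAs. Its near copy miR-378c differs at 1 of the 20 bases they share. The relative miR-378a-3p was not compared with miR-378b by sequence. How reads with several matches were handled is not given in the sources used here, so the division of reads within the family is uncertain.

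miR-1981-5p had 35.9, 42.7 and 41.4 RPM in HF+CR, with 80.1, 70.4 and 77.6 RPM in HF+Ex and 49.98, 68.3 and 69.2 RPM in HF. Here too HF lay between the other groups without overlap. The difference was -0.91 (SE 0.17, adjusted p = 0.00669). miR-676-3p had 86.6, 68.6 and 90.6 RPM in HF+CR, with 227, 180 and 162 RPM in HF+Ex and 126, 180 and 123 RPM in HF. HF+CR was below both other groups, while HF and HF+Ex overlapped. Its difference was -1.20 (SE 0.24, adjusted p = 0.0109), with an adjusted p of 0.0533 when HF+CR 2 was left out.

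**Figure D3:**
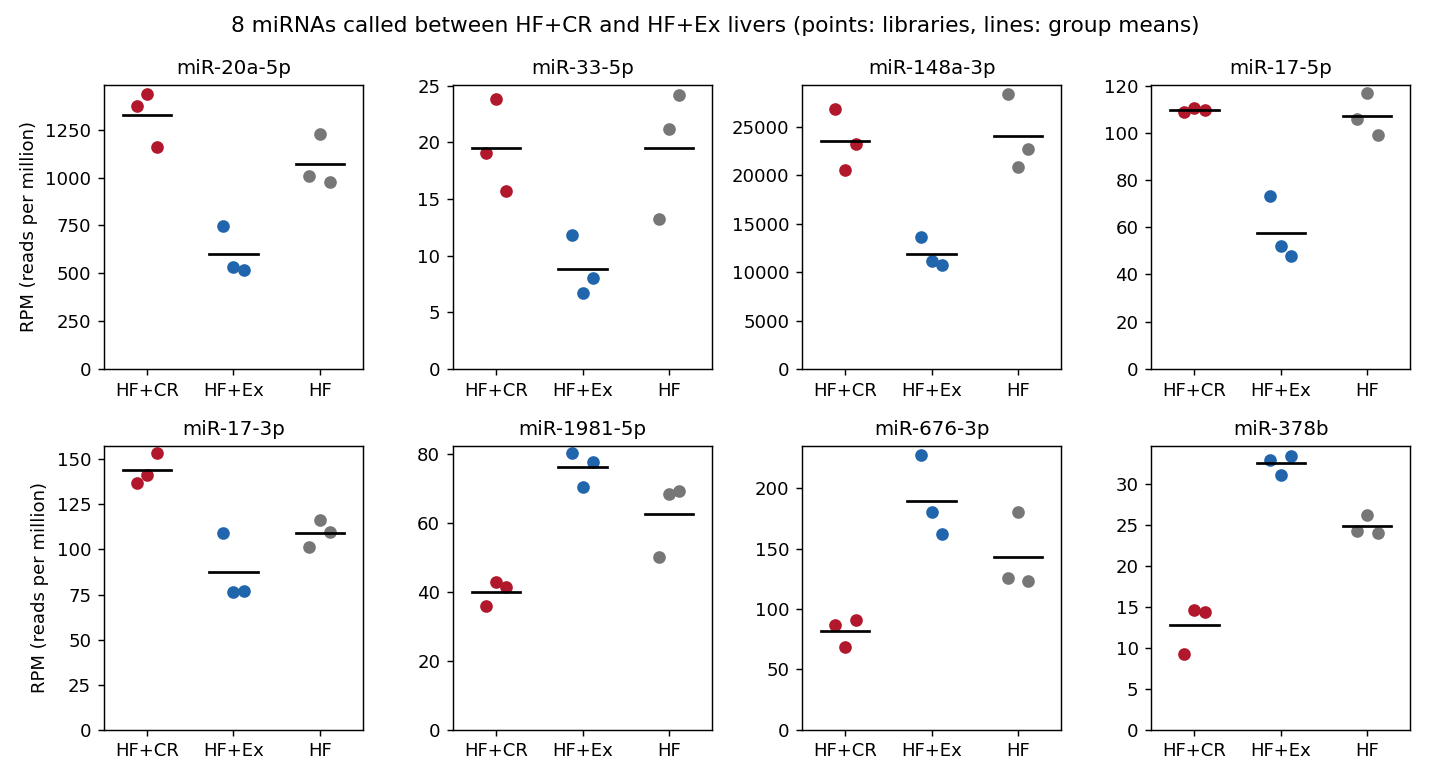
RPM of the 8 called miRNAs in each library (points) with group means (lines) for HF+CR, HF+Ex and HF, on linear axes that start at 0. For miR-17-5p, miR-148a-3p and miR-33-5p the HF and HF+CR means lie close together and HF+Ex is lower; for miR-378b and miR-1981-5p HF lies between the other groups.

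The 2 groups can also each be set beside HF, whose 3 libraries both comparisons share; no test was made of these values. For miR-17-5p, miR-148a-3p and miR-33-5p, HF+CR minus HF was 0.03 (SE 0.17), -0.03 (SE 0.22) and 0.02 (SE 0.26) on the log2 scale. For the same miRNAs, HF+Ex minus HF was -0.90, -1.02 and -1.05 with the same SEs. miR-20a-5p stood at 0.31 for HF+CR and -0.85 for HF+Ex (SE 0.19), and miR-17-3p at 0.40 and -0.34 (SE 0.18). The 3 lower miRNAs had HF+CR values further from HF than the HF+Ex values: -0.94 and 0.38 for miR-378b, -0.62 and 0.29 for miR-1981-5p, and -0.79 and 0.41 for miR-676-3p.

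The other miRNAs of the miR-17-92 transcript had values in the same direction as the 3 called members. Of its 9 tested miRNAs, within 792 bases of miR-17-5p, 9 had a log2 difference above 0, where 44.4% of all 351 did. The 9 include the 3 called members, whose sign was fixed by their call. They also share 1 transcript, so they are not independent, and none of the other members passed. miR-19b-3p had 8401, 7318 and 7616 RPM in HF+CR, against 4638, 6523 and 5872 RPM in HF+Ex. The groups did not overlap, and the difference of 0.47 (SE 0.14) did not pass (adjusted p = 0.0732). Its close relative miR-19a-3p had 1519, 1273 and 1516 RPM in HF+CR, against 806, 1144 and 1024 RPM in HF+Ex, again without overlap (0.54, adjusted p = 0.131). The remaining members were at 0.69 for miR-20a-3p, 0.50 for miR-18a-5p, 0.33 for miR-92a-1-5p and 0.28 for miR-92a-3p. miR-92a-3p was the least separated, at 3206, 1766 and 2415 RPM in HF+CR, against 2445, 1461 and 2141 RPM in HF+Ex. miR-19b-3p and miR-92a-3p also have a copy at a second locus on chromosome X, and reads from the copies cannot be told apart.

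A further 3 tested miRNAs carry the seed of miR-17-5p and miR-20a-5p but come from other loci. They are shown with the seed in capitals.
miR-106b-5p: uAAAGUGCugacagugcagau
miR-20b-5p: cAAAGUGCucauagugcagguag
miR-93-5p: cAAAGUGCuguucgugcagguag
miR-106b-5p, from an intron of the replication gene Mcm7, had 117, 143 and 162 RPM in HF+CR, against 128, 77.1 and 66.7 RPM in HF+Ex, and the shallow HF+Ex 1 overlapped HF+CR (0.68, adjusted p = 0.148). miR-20b-5p was at 0.50 (adjusted p = 0.420). miR-93-5p, from the same host as miR-106b-5p, had 2699, 2942 and 4313 RPM in HF+CR, against 3346, 3586 and 3231 RPM in HF+Ex, a difference of -0.06 (95% confidence interval -0.48 to 0.36). Over the list of 11 tested miRNAs of miR-17-92 and its relative miR-106b-25, 3 were higher, the 3 called above, and 0 lower. Of all 351, 1.42% were higher. On the list 9 lay above 0 and the median was 0.50, against -0.06 over all 351. For 5 of the 11 every HF+CR library was above every HF+Ex library, as for 8.26% of all miRNAs. The list summed to 18604, 15770 and 18518 RPM in HF+CR, against to 13449, 14032 and 13485 RPM in HF+Ex, without overlap.

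**Figure D4:**
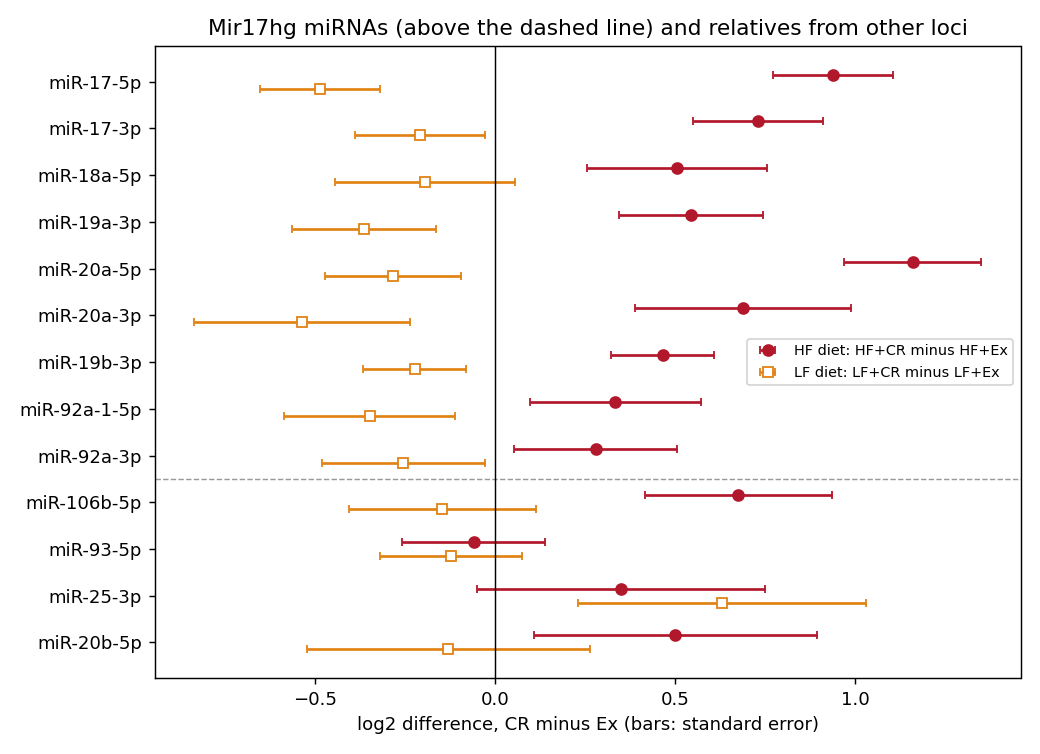
Log2 difference, CR minus Ex, with its standard error (bars) on the HF diet (filled circles) and the LF diet (open squares). All 9 miRNAs of Mir17hg, above the dashed line, are above 0 on the HF diet and below 0 on the LF diet; miR-93-5p lies at -0.06 on the HF diet.

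miR-148a-3p was called, and its tested seed mates were not. The 3 sequences, with the seed in capitals, diverge only outside it.
miR-148a-3p: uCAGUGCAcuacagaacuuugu
miR-148b-3p: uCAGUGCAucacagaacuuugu
miR-152-3p: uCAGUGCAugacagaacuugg
miR-148b-3p had 473, 325 and 528 RPM in HF+CR, against 532, 423 and 344 RPM in HF+Ex, a difference of 0.02 (95% confidence interval -0.52 to 0.57). miR-152-3p had 1116, 1868 and 1924 RPM in HF+CR, against 1950, 2243 and 1801 RPM in HF+Ex (-0.32, adjusted p = 0.322). Both overlapped between the groups. The other arm of the miR-148a hairpin, miR-148a-5p, was at 0.16 (adjusted p = 0.701). The difference between these miRNAs was not tested.

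The miR-378 family, whose member miR-378a is encoded in the gene of the mitochondrial coactivator Ppargc1b, had 4 tested members and a median of -0.68. Of these, 0 were higher and 1 was lower (miR-378b, reported above), where 0.855% of all 351 were lower. miR-378c had 1178, 2034 and 1830 RPM in HF+CR, against 2386, 3643 and 3252 RPM in HF+Ex. The groups did not overlap, and -0.90 (SE 0.28) did not pass (adjusted p = 0.0772). miR-378a-3p, the abundant member, had 7667, 9953 and 9278 RPM in HF+CR, against 9907, 14671 and 12747 RPM in HF+Ex, with HF+Ex 1 within the HF+CR range (-0.46, adjusted p = 0.230). miR-378a-5p was at 0.04.

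Of the 16 miRNAs named next for their p-values, none passed (adjusted p 0.0538 to 0.0714). All but miR-205-5p and miR-345-5p showed no overlap between the groups, where 19.1% of all 351 showed none. Picking them by p in this comparison favours separated groups, so the lack of overlap adds no support. Both arms of 3 hairpins appear with the same sign in this set or beside a called arm. miR-676-5p had 9.81, 8.81 and 6.68 RPM in HF+CR, against 15.4, 17.4 and 15.6 RPM in HF+Ex (-0.87), like its called 3p arm. miR-1981-3p had 8.13, 6.35 and 5.35 RPM in HF+CR, against 13.8, 9.36 and 13.6 RPM in HF+Ex (-0.80), again like its called partner. Both arms of miR-1948 were above 0: the 3p arm had 89.7, 86.7 and 58.2 RPM in HF+CR, against 42.3, 47.9 and 39.7 RPM in HF+Ex (0.82), and the 5p arm had 31.4, 19.0 and 12.7 RPM in HF+CR, against 9.35, 8.02 and 5.91 RPM in HF+Ex (1.26). Across the 100 hairpins with both arms tested, 67 had arms of the same sign and 33 of opposite sign, with Pearson's r of 0.69 and Spearman's rho of 0.57 over arms that share libraries and a precursor. miR-345 was among the opposite ones. Its 5p arm had 120, 80.4 and 65.2 RPM in HF+CR, against 69.5, 39.4 and 19.97 RPM in HF+Ex (1.15), while its 3p arm had 9.25, 5.64 and 6.68 RPM in HF+CR, against 13.4, 11.5 and 13.8 RPM in HF+Ex (-0.78); the hairpin overlaps an exon of Slc25a47, a mitochondrial carrier of liver.

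The other miRNAs of that set with values above 0 were miR-592-5p, miR-136-5p and let-7g-3p. miR-592-5p, whose hairpin overlaps the glutamate receptor gene Grm8, had 34.7, 25.6 and 26.4 RPM in HF+CR, against 16.7, 4.68 and 4.68 RPM in HF+Ex (1.84). miR-136-5p had 75.9, 23.3 and 39.4 RPM in HF+CR, against 10.2, 21.9 and 9.15 RPM in HF+Ex (1.62), and let-7g-3p was at 1.04 from levels under 9 RPM. Those below 0 were miR-205-5p (-2.34), miR-331-3p (-1.19), miR-1839-5p (-0.71), miR-107-3p (-0.61), miR-322-5p (-0.54), let-7f-5p (-0.46) and let-7a-5p (-0.46). miR-205-5p, best known from epithelia, varied most, with 11.5, 8.64 and 56.2 RPM in HF+CR, against 130, 128 and 52.5 RPM in HF+Ex; HF+CR 3 lay above HF+Ex 3. miR-107-3p, a regulator of insulin sensitivity in mice that lies in an intron of Pank1, had 3872, 5289 and 3154 RPM in HF+CR, against 5932, 6185 and 6299 RPM in HF+Ex.

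The let-7 family, known regulators of growth and of insulin signalling, was listed by its 5p arms, which carry the family's seed. These were below 0 in 9 of 9 tested members, where 55.6% of all miRNAs were, with a median of -0.38 (-0.25 without HF+CR 2 and -0.54 without HF+CR 3); 0 passed in either direction. Of the 7 tested 3p arms of let-7 hairpins, 5 were below 0 and 2 above it, let-7g-3p at 1.04 and let-7i-3p at 0.67, and 0 passed. Of those below 0, let-7a-1-3p and let-7c-2-3p had identical values (-0.31) and count as the same measurement. let-7f-5p had 25064, 25208 and 29136 RPM in HF+CR, against 33332, 35064 and 41337 RPM in HF+Ex. let-7a-5p had 27081, 20964 and 29248 RPM in HF+CR, against 35965, 30883 and 39071 RPM in HF+Ex. For 5 of the 9 every HF+CR library was below every HF+Ex library, against 10.8% of all miRNAs, and let-7i-5p was the closest to 0 at -0.04. The family summed to 117733, 102087 and 130761 RPM in HF+CR, against to 153271, 137445 and 162178 RPM in HF+Ex, and its members differ by few bases, so reads may be divided among them. With RPM rescaled by size factors 8 of the 9 were below 0, the median was -0.33 and the 2 named members moved further from the threshold (adjusted p = 0.138 for let-7f-5p and 0.124 for let-7a-5p).

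In the list of 18 tested miRNAs tied to lipid and sterol metabolism, 2 were higher, where 1.42% of all 351 were. They were miR-148a-3p and miR-33-5p, both reported above. On this list 0 were lower and the median was 0.04. miR-122-5p, also on it, had 268712, 282043 and 216952 RPM in HF+CR, against 242405, 234912 and 267972 RPM in HF+Ex, a difference of 0.04 (95% confidence interval -0.25 to 0.32). miR-34a-5p, induced by p53 and often studied in fatty liver, had 1176, 596 and 2940 RPM in HF+CR, against 2695, 3657 and 2732 RPM in HF+Ex; HF+CR 3 alone reached the HF+Ex range (-1.24, SE 0.50, adjusted p = 0.165). miR-96-5p had 70.9, 69.8 and 117 RPM in HF+CR, against 26.8, 30.5 and 27.8 RPM in HF+Ex, without overlap (1.53, SE 0.48, adjusted p = 0.0816). With it, 3 of 3 members of its cluster were above 0 (median 0.77). That median was 0.31 without HF+CR 3 and 1.04 without HF+CR 1. In the list of 18 tied to insulin and glucose, 1 was higher (miR-33-5p, counted again), 0 were lower and the median was -0.01. Both arms of miR-802, raised in livers of obese mice in other work, lay lower in every HF+CR library, as did 10.8% of all 351. miR-802-5p had 1770, 2504 and 2357 RPM in HF+CR, against 3230, 3116 and 3552 RPM in HF+Ex (-0.59, adjusted p = 0.186). miR-802-3p had 97.5, 115 and 157 RPM in HF+CR, against 252, 207 and 221 RPM in HF+Ex (-0.90, adjusted p = 0.0823).

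The 10 most abundant miRNAs of the 6 libraries did not pass. Beside miR-122-5p, let-7f-5p and let-7a-5p they were miR-21a-5p (0.17), miR-29a-3p (-0.01), miR-194-5p (0.15), miR-192-5p (-0.33), miR-29c-3p (-0.09), let-7c-5p (-0.37) and miR-30a-5p (0.22). The interval of miR-29a-3p, which represses collagen genes, was -0.28 to 0.26, and that of miR-21a-5p, often raised in injured liver, was -0.34 to 0.69. Of these 10, the 3 miRNAs let-7f-5p, let-7a-5p and miR-30a-5p showed no overlap between the groups, as did 19.1% of all 351. Hepatocyte markers had a median of 0.15 over 5 tested, with 1 higher, where 1.42% of all 351 were. It was miR-148a-3p, which is also a result above.

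Markers of other cell types varied among the HF+CR libraries. Of 8 leukocyte miRNAs, 5 were below 0, 0 passed and the median was -0.75; it was -0.08 without HF+CR 2, -0.43 without HF+Ex 1 and -1.39 without HF+CR 3. The list summed to 5615, 3633 and 9761 RPM in HF+CR, against to 7916, 5612 and 6724 RPM in HF+Ex. miR-223-3p, a myeloid miRNA, had 669, 449 and 1817 RPM in HF+CR, against 2087, 1478 and 1854 RPM in HF+Ex (-1.13, adjusted p = 0.186). The 2 endothelial entries, both arms of the same hairpin, miR-126, were below HF+Ex in every HF+CR library, as were 10.8% of all 351. They were at -0.33 and -0.31, and 0 passed. Their sums were 15680, 16605 and 16024 RPM in HF+CR, against 20812, 19096 and 20402 RPM in HF+Ex. All 5 epithelial miRNAs were above 0 (median 1.09, and 0.21 without HF+CR 3). Stellate and mural markers had 4 of 6 above 0 (median 0.17, and -0.23 without HF+CR 3) and erythroid markers 1 of 4 (median -0.10, -0.26 without HF+CR 2 and 0.19 without HF+CR 3). Pancreatic markers were above 0 in 2 of 2 (median 1.43) and muscle markers in 2 of 2 (0.83); without HF+CR 1 these medians were 0.23 and 0.31. Neuronal markers had 3 of 4 above 0 (median 0.92, and 0.27 without HF+CR 2). Fragment-like entries had 3 of 5 above 0 (median 0.07, -0.21 without HF+Ex 2 and 0.41 without HF+Ex 1), and 0 passed in any of these lists. Their part in the differences between HF+CR and HF+Ex was not tested. The 8 called miRNAs passed also without HF+CR 3 and without HF+Ex 1. Without HF+CR 1, the library with the pancreatic markers, the calls of miR-33-5p, miR-148a-3p and miR-17-3p were lost (adjusted p = 0.0855 for each). Their log2 differences were then 1.08, 0.89 and 0.77, against 1.08, 0.99 and 0.73 with all libraries. The same calls were also lost without HF+Ex 2 or HF+Ex 3. Without HF+CR 2, the library with the neuronal markers, the calls of miR-33-5p (0.106), miR-17-3p (0.105) and miR-676-3p (0.0533) were lost. Their log2 differences were then 0.93, 0.74 and -1.08, against 1.08, 0.73 and -1.20.

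The imprinted Dlk1-Dio3 cluster, whose miRNAs are expressed from the maternal copy, was above 0 in 13 of 13 tested members, where 44.4% of all 351 were. The median was 0.996, and 0 passed. Only 13 of the 45 members in the data were tested. Low members could pass the filter through libraries where they were high, HF+CR 1 and HF+CR 3 among them. miR-127-3p had 44.6, 21.7 and 52.1 RPM in HF+CR, against 16.3, 25.7 and 13.9 RPM in HF+Ex, so that HF+CR 2 lay within HF+Ex (0.999, adjusted p = 0.199). The cluster summed to 291, 106 and 312 RPM in HF+CR, against to 89.8, 124 and 72.4 RPM in HF+Ex: HF+CR 1 and HF+CR 3, which also held the highest pancreatic or epithelial sums, lay above HF+Ex, and HF+CR 2 did not. Without HF+CR 3, 12 of 13 were above 0 and the median was 0.70, and without HF+CR 2 it was 1.37. The miR-322 cluster of chromosome X, which also holds miR-503 and miR-542, had 7 of 8 members below 0 (median -0.24, 0 passed; 6 of 8 with RPM rescaled by size factors, and a median of -0.14 without HF+CR 1 and -0.39 without HF+CR 3), with miR-322-5p, a cell cycle regulator, at 384, 453 and 520 RPM in HF+CR, against 635, 622 and 709 RPM in HF+Ex. The miR-30 family had a median of 0.14, miR-29 of -0.09 and the fibrosis and injury list of -0.08, with 0 passing in each. The miR-15/16 family was at -0.27, with 0.13 without HF+CR 2 and -0.63 without HF+CR 3, and the miR-34 family at -0.54, with -0.09 without HF+CR 2 and -1.02 without HF+CR 3; 0 passed in either. The 7 Sfmbt2 entries lay below 0 (median -0.25, and -0.55 with identical entries counted once), but hold 2 distinct measurements, and the median was 0.15 without HF+CR 2. miR-210-3p, the main hypoxia miRNA, was at -0.37.

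Leaving out HF+CR 3 raised the count to 63, of which 17 were higher and 46 lower. Among those that then passed were miR-455-5p at 1.53 (adjusted p = 0.00164), miR-582-5p at -4.69 (0.00822), miR-582-3p at -3.77 (0.00935), miR-34a-5p at -1.84 (0.0189), miR-223-3p at -1.70 (0.0206) and miR-155-5p at -1.79 (0.0181); they were chosen after their values were seen. miR-582-5p, the most negative of those named here, had 7.85, 14.1 and 293 RPM in HF+CR, against 266, 367 and 269 RPM in HF+Ex. For this miRNA HF+CR 3 lay within the HF+Ex range and apart from the other HF+CR libraries. Calls gained by leaving out HF+CR 3 favour miRNAs for which it lay apart from HF+CR 1 and HF+CR 2. miR-582-5p therefore does not stand for the 63. The median over all 351 was then -0.20, with 4.84% called higher and 13.1% called lower. In the let-7 family 5 of 9 passed, all lower, and in the leukocyte list 3 of 8, all lower. In the list of miR-17-92 and its relatives 3 of 11 were higher, with a median of 0.48. Leaving out HF+Ex 1 gave 27 (7.69%), 21 of them higher, with miR-22-3p at 0.68 (adjusted p = 0.0271), miR-106b-5p at 0.95 (0.0320) and the fragment-like miR-690 at 3.60 (0.00217).

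On the LF diet the same contrast, LF+CR against LF+Ex, gave 9 miRNAs (2.56%), 1 higher and 8 lower, and 0 of the 8 called on the HF diet were among them. The split depended on the scaling and the fit: RPM rescaled by size factors gave 7, of which 3 were higher and 5 were among the 9, and a fit of only the compared groups gave 6, of which 3 were higher and 2 were among the 9. Rescaling moved the LF median over all 351, -0.13 as deposited, to 0.02. A test of the difference itself, the CR minus Ex difference on HF less that on LF, called 10 of 351 (2.85%), 8 positive and 2 negative; 4 of the 8 called on HF were among them. miR-20a-5p was at -0.28 on LF, with 953, 753 and 808 RPM in LF+CR and 1039, 921 and 1094 RPM in LF+Ex, and the diets differed by 1.44 (SE 0.27, adjusted p = 0.00492). miR-17-5p had 76.9, 68.4 and 73.8 RPM in LF+CR and 103, 107 and 97.9 RPM in LF+Ex, the reverse of its order on HF (difference between diets 1.42, SE 0.24, adjusted p = 0.00246). miR-148a-3p had 15001, 16068 and 28788 RPM in LF+CR and 34248, 31348 and 28262 RPM in LF+Ex, where LF+CR 3 overlapped LF+Ex (1.70, SE 0.30, adjusted p = 0.00400). miR-676-3p was the negative one of the 4, with 61.3, 98.0 and 73.6 RPM in LF+CR and 47.6, 60.6 and 75.3 RPM in LF+Ex (-1.54, SE 0.34, adjusted p = 0.0172). This call was lost without LF+CR 2, LF+Ex 1, LF+Ex 2 or HF+CR 2.

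For the other 4 of the 8 the difference between diets did not pass: miR-17-3p at 0.94 (adjusted p = 0.0566), miR-378b at -1.22 (0.0689), miR-33-5p at 1.07 (0.116) and miR-1981-5p at -0.65 (0.147). Among the called miRNAs, miR-1948 gave the largest differences between diets. Its 3p arm had 13.1, 19.4 and 19.0 RPM in LF+CR and 102, 98.3 and 71.2 RPM in LF+Ex, and the order on HF was the opposite (3.15, SE 0.35, adjusted p = 5.74e-05). Its 5p arm had 2.39, 2.52 and 4.55 RPM in LF+CR and 20.9, 19.2 and 18.9 RPM in LF+Ex (3.61, SE 0.47, adjusted p = 2.25e-04). miR-592-5p was likewise lower in every LF+CR library, with 16.9, 16.5 and 13.7 RPM in LF+CR and 46.5, 45.0 and 30.9 RPM in LF+Ex (3.14, SE 0.69, adjusted p = 0.0172). Its call was lost without LF+Ex 1 or LF+Ex 2. The 9 tested Mir17hg miRNAs, all above 0 on HF, were all below 0 on LF, also with RPM rescaled, where 37.9% of all 351 were above 0 as deposited, and the list of miR-17-92 and its relatives had a median of -0.21 there, against -0.13 over all 351.

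**Figure D5:**
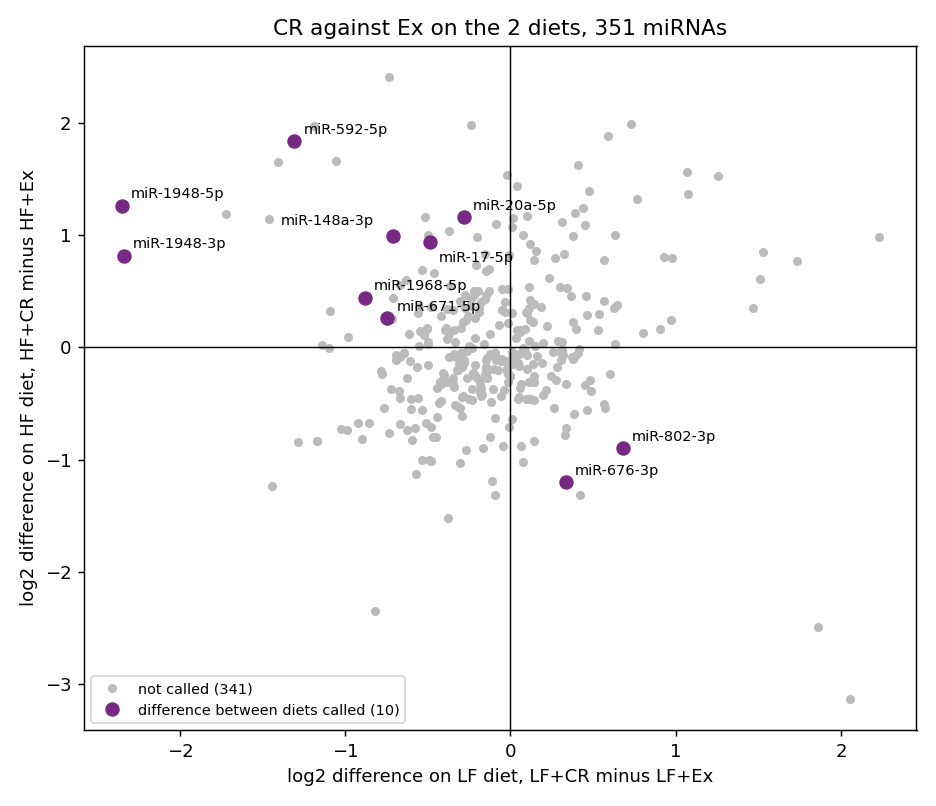
Log2 difference, CR minus Ex, on the HF diet (y axis) against the LF diet (x axis) for 351 miRNAs; the 10 miRNAs whose difference between diets was called are in purple. 8 of them lie in the upper left (above 0 on HF, below 0 on LF) and miR-676-3p and miR-802-3p lie in the lower right.

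The 407 miRNAs left untested were low in the 6 libraries. They reached at most 30.7 RPM, summed to between 235 and 409 RPM in a library, and 90 were listed at 0 in all 6. At the edge of the filter, miR-369-3p and miR-187-5p were just inside, with 5.04 and 5.09 RPM in their third-highest library, and miR-9-3p and miR-101b-5p were just outside, with 4.91 and 4.76 RPM.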

How the data were processed

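The authors deposited RPM, a count of reads relative to each library's total, for 758 mature miRNAs in each of 18 libraries, per the file headers. Per the labels' protocols, Trizol RNA from frozen liver was enriched for small RNA and made into Illumina libraries. Per the submitters' processing notes the build was mm10. The aligner, counter, filters and treatment of multiply matching reads were not given in the sources used here. RPM is a share, so abundant miRNAs move the others. The columns summed to 96.4% to 97.1% of the RPM scale. Every value was a whole multiple of a step (tolerance 0.001 reads), taken as 1 read, which gave the depths; the smallest listed value was 2 reads. Without molecular identifiers, reads are not independent molecules.

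Groups came from the sample titles. Tests used limma 3.58.1 (R 4.3.3) on log2(RPM + 1) over all 18 libraries with 1 coefficient per group, an intensity trend and no robust weights. Tests were two-sided, and p-values were adjusted over 351 miRNAs by Benjamini-Hochberg. The contrasts were HF+CR minus HF+Ex, LF+CR minus LF+Ex and their difference. The script was tested on simulated data. Named were up to 12 called miRNAs in each direction, filled by p to 24, the 10 most abundant, members of 25 lists, and up to 6 by p for the diet difference; others are said to be chosen after their values. The comparison, lists and rule were chosen with earlier results of these data known. Hosts are from GENCODE M21, sequences from RefSeq, and plots were made with matplotlib 3.10.9. Alternatives were another pseudocount, filter, scaling or fit, and leaving out libraries.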

Additional observations from a re-analysis of the deposited data

Results flagged for a closer look

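For 10 miRNAs the CR minus Ex difference on the HF diet differed from that on the LF diet in a test of that difference (limma, adjusted over 351 miRNAs, log2 scale). The differences, HF less LF, were 3.15 for miR-1948-3p (0.82 on HF, -2.34 on LF), 3.61 for miR-1948-5p (1.26 and -2.35), 3.14 for miR-592-5p (1.84 and -1.31), 1.70 for miR-148a-3p (0.99 and -0.71), 1.44 for miR-20a-5p (1.16 and -0.28) and 1.42 for miR-17-5p (0.94 and -0.49). miR-671-5p differed by 1.002 (0.26 and -0.75). On HF alone 4 of the 10 passed, namely miR-148a-3p, miR-20a-5p, miR-17-5p and miR-676-3p. miR-1968-5p differed by 1.32 (0.44 and -0.88), at levels of 9.81, 13.4 and 6.68 RPM in HF+CR, against 6.91, 6.28 and 7.25 RPM in HF+Ex. Negative were miR-676-3p at -1.54 (-1.20 and 0.34) and miR-802-3p at -1.58 (-0.90 and 0.68). Adjusted p ran from 5.74e-05 for miR-1948-3p to 0.0479 for miR-802-3p. All of them have opposite signs on the 2 diets. With any 1 of the 12 libraries of these 4 groups left out, the calls of miR-1948-3p, miR-1948-5p, miR-17-5p, miR-148a-3p, miR-20a-5p and miR-671-5p were kept each time. Without LF+Ex 1 or LF+Ex 2 these 6 were the only calls. Those of miR-592-5p, miR-676-3p, miR-1968-5p and miR-802-3p were then lost. Without LF+CR 2 or HF+CR 2 the negative calls, miR-676-3p and miR-802-3p, were lost as well. With RPM rescaled by size factors 8 of the 10 calls were kept, and that of miR-671-5p was among those lost (adjusted p = 0.0635).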

How the results depend on the processing

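The HF+CR against HF+Ex count of 8 was 12 with a pseudocount of 5, 13 with no filter, 9 with a filter of 50 RPM, 11 rescaled by size factors, 8 without the intensity trend, 8 with identical entries counted once, and 0 with only the compared groups. It was 6 with a replicate block, where miR-33-5p and miR-17-3p missed the threshold (adjusted p = 0.0536 for both). Leaving out 1 library gave 5 to 63 (63 without HF+CR 3, 27 without HF+Ex 1, 5 without HF+CR 1, HF+Ex 2 or HF+Ex 3), and leaving out HF+CR 3 and HF+Ex 1 together gave 58. The calls of miR-20a-5p, miR-17-5p, miR-378b and miR-1981-5p were kept in all 6 single leave-outs, that of miR-676-3p in 5, of miR-148a-3p in 3, and of miR-33-5p and miR-17-3p in 2 each; adjusted p over all alternatives ran from 0.00116 to 0.0901 for miR-20a-5p and from 0.0139 to 0.264 for miR-33-5p. The LF count of 9 (1 higher) was 7 (3 higher) rescaled by size factors, 6 (3 higher) with only the compared groups, 3 with no filter, 5 with a filter of 50 RPM, 8 with a replicate block and 2 to 13 with 1 library left out. The count of 10 for the difference between diets was 10 with a replicate block, 6 to 25 with 1 library left out and 31 without HF+CR 3 and HF+Ex 1. No miRNA named by its p-value changed sign, but some list medians did. Without HF+CR 2, hepatocyte was -0.01, miR-15/16 0.13, Sfmbt2 0.15 and fibrosis and injury 0.05. Without HF+CR 3, lipid and sterol was -0.05, stellate and mural -0.23 and erythroid 0.19. Without HF+CR 1, lipid and sterol was -0.01, insulin and glucose 0.02 and fragment-like entries -0.05. Without HF+Ex 1, fibrosis and injury was 0.16; without HF+Ex 2, fragment-like entries -0.21; without HF+Ex 3, lipid and sterol -0.07, erythroid 0.03 and Sfmbt2 0.01. Insulin and glucose was 0.05 when rescaled, and neuronal -0.42 with a filter of 50 RPM. Deviations from the group means correlated at r of 0.15, 0.19 and -0.08 between same-numbered libraries. Between libraries of different number r ran from -0.22 to 0.12. With 3 libraries per group these values cannot decide whether the numbers pair the libraries, and the labels do not say. The cause of these changes was not tested. Weights from limma's voom on reads derived from the RPM steps, an alternative chosen after seeing the data, gave 12, 8 and 15 for the 3 counts; the planned count test on those reads was not run. The shallowest library, HF+Ex 1 with 2.38 megareads, limits low miRNAs most: 2 reads there are the least that could be listed. Intervals cover the spread between libraries.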

Other observations

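A group of X-linked miRNAs, miR-741-3p, miR-881-3p, miR-880-3p and miR-871-3p, was high in HF+CR 2 only among the 6 compared libraries, and was noticed after the values were seen. miR-741-3p had 4.48, 66.4 and 5.68 RPM in HF+CR, against 2.44, 2.94 and 2.01 RPM in HF+Ex. miR-881-3p had 3.64, 56.8 and 2.67 RPM in HF+CR, against 0, 1.47 and 1.67 RPM in HF+Ex, where the 0 is a listed value. miR-880-3p had 3.08, 52.7 and 2.34 RPM in HF+CR, and miR-871-3p 1.96, 39.3 and 2.34 RPM. HF+CR 2 was also the library with the most neuronal marker RPM, at 163 RPM of miR-124-3p, against 1.34 to 9.53 RPM in the other 5. None of these miRNAs passed in HF+CR against HF+Ex (adjusted p = 0.169 for miR-741-3p and 0.131 for miR-881-3p). LF+Ex 1 held the most of the group among the LF+CR and LF+Ex libraries, at 14.5 RPM of miR-741-3p. Their part in the differences reported was not tested.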
